A study of Mus musculus with 5 samples.

Results

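Isolated short sites of H3K27me3, histone H3 trimethylated at lysine 27, were picked out of the genome of mouse embryonic fibroblasts. They were chosen from chromosomes 1 to 19 in bins of 2 kb. A bin was taken where it held at least 20 H3K27me3 reads and its H3K27me3 share was at least 3 times its share of the whole cell extract (WCE) reads, with 1 read added to each count. Taken bins with at most 1 bin between them were joined into regions, and a region of at most 4 kb with no other region within 20 kb was kept. This left 2458 sites of 10442 regions, 23.5%, of which 2017 were 2 kb and 441 were 4 kb long. Together they covered 5798 kb.

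H3K27me3 is laid down by Polycomb repressive complex 2, whose catalytic subunit is EZH2 or EZH1, and it marks genes that are held silent. In differentiated cells such as fibroblasts it is best known from broad domains over developmental genes, and narrower peaks at CpG-rich promoters also occur. RNA polymerase II (RNA Pol II) transcribes protein-coding genes, and E2F4 is a mostly repressive member of the E2F family that binds cell cycle promoters.

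The series is a chromatin immunoprecipitation and sequencing study of secondary fibroblasts, with 1 library for H3K27me3, 1 for E2F4, 1 for RNA Pol II (antibody 8WG16) and 2 of WCE, which is sonicated chromatin without antibody. All 5 libraries came from cells that carry inducible Oct4, Klf4 and Sox2 and an Oct4-selectable cassette. The cells descend from induced pluripotent cells injected into BDF2 blastocysts, were harvested from chimeric embryos at 13.5 days post coitum and were freed of host cells by puromycin at 2 µg/ml for 48 hours. The labels give neither the number of embryos or clones nor whether the factors were induced in the fibroblasts. No gene table of the files' build was used here, so marker genes of fibroblasts could not be looked at and no gene is named. Counted once per position and strand, the autosomes held 9483163 H3K27me3, 3111606 RNA Pol II and 1971874 E2F4 reads, against 11644392 WCE reads, of which only 417799 were from WCE replicate 1. Each antibody has a single library, so the spread between replicates is unknown and no p-value is given. Intervals are exact 95% intervals that cover counting error only, and PCR copies are not independent molecules.

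The values that chose the sites are a description. A site held 20 to 407 H3K27me3 reads with a median of 29 (quartiles 23 and 54), against 1 to 105 WCE reads with a median of 9 (7 and 16). The fold had a median of 3.68 (3.27 and 4.50) and a highest value of 15.2. By the same rule 2.43% of all 1122218 autosomal 2 kb bins with a read were taken. Many sites lay close to the limits, with 633 at a fold from 3 to under 3.3 and 550 at 20 to 22 reads. The first sites inside the fold limit, all on chromosome 1 (18042001 to 18044000, 21098001 to 21100000 and 37518001 to 37520000 on mm8, as all positions here), each held 21 H3K27me3 and 8 WCE reads, a fold of 3.0. The nearest outside it, on chromosome 4 from 8164001 to 8166000 and on chromosome 5 from 28172001 to 28174000 and from 100556001 to 100558000, each held 38 and 15 reads, a fold of 2.99. In all, 196 isolated 2 kb bins with enough reads had a fold from 2.9 to under 3.

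**Figure D1:**
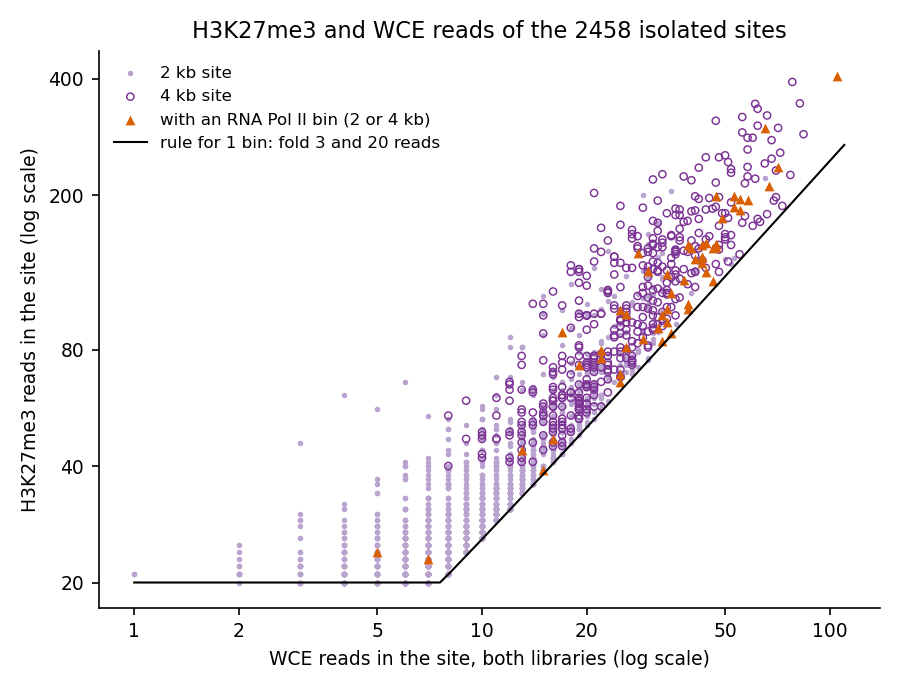
Each point is an isolated site, with its WCE reads (both libraries summed) on the horizontal and its H3K27me3 reads on the vertical axis, both on log scales; the line is the rule for a single bin, dots are 2 kb and rings 4 kb sites, and triangles are the 52 sites with an RNA Pol II bin. Most points crowd near the corner at 20 H3K27me3 reads, while sites with an RNA Pol II bin lie mostly at 80 H3K27me3 reads or more.

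The 5 sites with the highest lower limit of the H3K27me3 ratio to WCE are given with their reads in every library. They were ranked on this ratio and not on H3K27me3 reads, which ran from 46 to 312. They are therefore examples of a high ratio and do not stand for the sites with most H3K27me3 reads. On chromosome 7, 78450001 to 78454000 held 203 H3K27me3, 4 RNA Pol II, 13 E2F4, 0 WCE replicate 1 and 21 WCE replicate 2 reads, an H3K27me3 ratio of 11.9 (7.56 to 19.6). On chromosome 15, 92224001 to 92226000 held 61, 0, 1, 0 and 4 reads in the same order, a ratio of 18.7 (6.95 to 70.9). On chromosome 3, 153910001 to 153914000 held 188, 1, 8, 0 and 25 reads, a ratio of 9.23 (6.06 to 14.6). None of these had an RNA Pol II or E2F4 bin. The site on chromosome 11 from 52010001 to 52012000 held 46, 0, 1, 0 and 3 reads, a ratio of 18.8 (6.05 to 94.6). The last of them, on chromosome 15 from 78868001 to 78872000, held 312, 4, 10, 1 and 46 reads, a ratio of 8.15 (5.98 to 11.3). The highest ratios thus rested on 3 and 4 WCE reads and had the widest intervals. RNA Pol II ran from 0 to 4 reads at the 5. All 2 kb bins had a median of 0 and an upper quartile of 1, so none of these counts was below the median bin.

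The summed profiles differed between classes of sites. Summed over the 1609 sites with under 40 H3K27me3 reads, all of them 2 kb long, H3K27me3 formed a plateau at 2.37 times its level 10 to 20 kb away at most, with a step at both edges of the bin. The outermost 400 bp inside these sites held 16231 H3K27me3 reads and the next 400 bp outside held 11596, a ratio of 1.4 (1.37 to 1.43). WCE replicate 2 stepped the other way at the same edges, with 4972 reads inside and 7369 outside, a ratio of 0.675 (0.651 to 0.700). RNA Pol II, which the rule did not use, changed less across those edges, from 662 reads outside to 571 inside, a ratio of 0.863 (0.770 to 0.966). For E2F4 no step was detectable (0.924, 0.844 to 1.01). In these weaker sites the larger steps were thus in libraries the rule counted, and they fell where the bins begin and end.

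The 378 sites with 80 H3K27me3 reads or more, chosen as a class after their values were seen, had a rounded peak instead. Only 95 of them were 2 kb long and the others 4 kb, so this profile differs from that of the weaker sites in site length as well. H3K27me3 reached 10.6 times its level 10 to 20 kb away in the centre, and it stood at or over its half-height for 2600 bp. In the 95 of these sites that were 2 kb long, WCE replicate 2 had no detectable step at the edges, at 1028 reads inside and 1002 outside (1.03, 0.940 to 1.12). H3K27me3 there held 3590 reads inside and 2162 outside, 1.66 (1.57 to 1.75), a larger ratio than the 1.4 at the edges of the weaker sites. The profile pools both lengths, so it cannot tell a step from a slope at these edges. E2F4, which the rule did not use, was lower inside these edges, at 182 reads against 261 outside, a ratio of 0.697 (0.574 to 0.846), and RNA Pol II had no detectable step (0.985, 0.865 to 1.12). The classes of 40 to 79 reads (471 sites) and of under 40 reads had medians of 54 and 24 H3K27me3 and 16 and 8 WCE reads, against 127.5 and 32 in the strongest class.

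**Figure D2:**
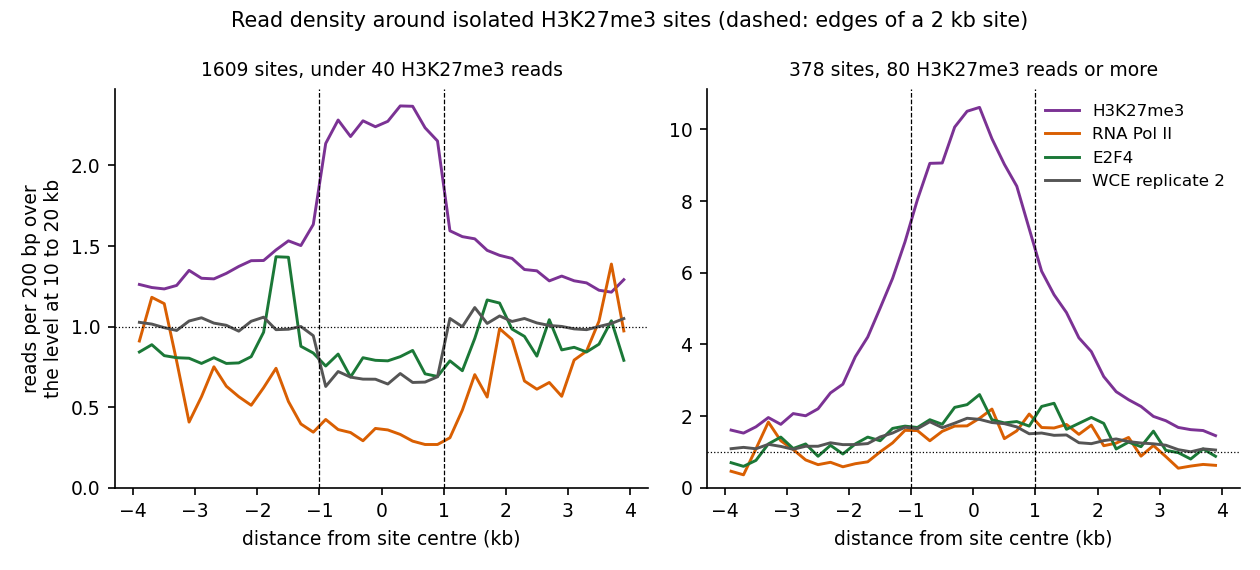
Reads per 200 bp, summed over sites and divided by the level 10 to 20 kb from the centre, are plotted against distance from the site centre in kb for sites with under 40 (left) and 80 or more H3K27me3 reads (right); dashed lines are the edges of a 2 kb site, and the vertical scales differ. On the left H3K27me3 steps up to at most 2.37 and WCE replicate 2 steps down at the dashed lines, and on the right H3K27me3 forms a rounded peak of 10.6. All sites on the left are 2 kb long and most on the right are 4 kb long.

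The weaker sites also moved with the placing of the bins. With bins that started 1000 bp later, the number of isolated sites was nearly the same, 2428, but only 1063 of the 2458 sites, 43.2%, overlapped an isolated site of that set, and 1466, 59.6%, overlapped a region of any length. Of the sites with under 40 reads 710 of 1609, 44.1%, were in any region then, and of those with 80 or more 369 of 378, 97.6%. Leaving the 5′ ends where they were gave 83.2% and 99.2%, and leaving out WCE replicate 1 gave 88.4% and 98.9%. Against WCE replicate 1 alone 266 of the strong sites were in a region, 70.4%, and 0 of the 1609 weaker ones, since its few reads cannot bring a bin of under 40 reads past the fold. Main RNA Pol II and E2F4 values are therefore given for the 2458 sites together and by class.

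**Figure D3:**
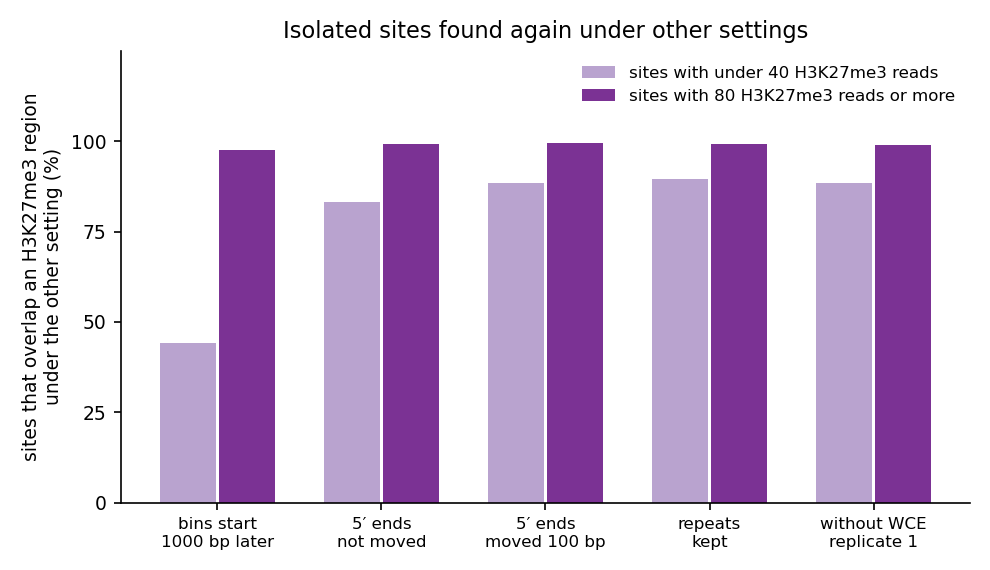
Bars, from 0, give the percentage of sites that overlap an H3K27me3 region of any length when one setting is changed, for sites with under 40 reads (light) and with 80 or more (dark). Moving the bins by 1000 bp kept 44.1% of the weaker and 97.6% of the strong sites, and under each of the 5 settings shown the strong class was found again more often.

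Both strands contributed to nearly all sites, which the rule did not ask for. The share of H3K27me3 reads on the plus strand had a median of 50.0% per site (quartiles 45.0% and 54.5%), and 4 sites had over 80% of their reads on one strand. In the strong class the share ran from 39.3% to 62.4%. Repeats of a position, removed before counting, had made up 11.8% of the H3K27me3 reads in the sites and 10.7% on all autosomes, and at most 32.3% in any one site. For RNA Pol II the removed share was 3.74% in the sites and 10.4% on the autosomes.

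Around the sites the ratio of H3K27me3 to WCE was lower with distance. Over all sites it to WCE was 1.76 (1.74 to 1.77) in the first 2 kb outside, 1.41 (1.4 to 1.42) from 2 to 5 kb, 1.25 (1.24 to 1.25) from 5 to 10 kb and 1.13 (1.12 to 1.13) from 10 to 20 kb. The rule itself held down these values by allowing no other region there. The surroundings differed by class. Beside the strong sites the ratio went from 1.91 (1.86 to 1.95) in the first 2 kb to 0.987 (0.974 to 1.00) from 10 to 20 kb, near the autosomal mean of 1. Beside the 810 sites of 20 to 24 reads it went from 1.60 (1.57 to 1.63) only to 1.18 (1.17 to 1.19). The difference was in the WCE reads: 5 to 20 kb away, H3K27me3 density was 5.61 per kb per 10000000 reads beside the weakest sites and 5.76 beside the strong ones, and WCE replicate 2 density 4.69 and 5.71.

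RNA Pol II reads were few in most sites, as in most 2 kb bins. Its reads did not enter the rule, but WCE reads did, and RNA Pol II differed with them. Of all 2 kb bins with 5 to 9 WCE reads 0.0370% held an RNA Pol II bin (defined below), against 12.3% of those with 20 or more. The low RNA Pol II level is therefore not independent of the choice of sites. A site held 0 to 350 RNA Pol II reads with a median of 1, and 948 sites, 38.6%, held 0, which allows up to 3 reads (a share of up to 9.64e-05% of the library) each. Of the 2 kb sites 43.5% held 0, fewer than the 50.3% of all 2 kb bins, whose median was 0. The mean was 1.69 reads in the 2 kb sites and 2.77 in all 2 kb bins. In all 5942 reads lay in the sites. Their density was 3.29 reads per kb per 10000000 reads against 4.95 in the flanks, the sequence 5 to 20 kb away, a ratio of 0.666 (0.648 to 0.683). The direction turned, to 2.37 (2.32 to 2.41), when WCE replicate 2 was left out, which gave 1379 sites that overlap only 302 of the 2458. No bin of under 40 H3K27me3 reads can pass the fold in that setting, so the value is of another choice of sites. WCE replicate 2 stood at 0.963 (0.953 to 0.974) of its flanks and WCE replicate 1 at 0.597 (0.549 to 0.648), and the part of these differences in the RNA Pol II value was not tested. WCE counts entered the rule, so the ratio of RNA Pol II to WCE, 0.657 (0.639 to 0.676), is tied to the choice of sites. It turned to 1.55 with libraries scaled on background bins and to 30.3 without WCE replicate 2. In the last setting sites were chosen for few reads of WCE replicate 1, which is also the divisor of that ratio.

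The RNA Pol II level differed between the classes of H3K27me3 reads, with its lowest value in the second class and its highest in the strong one. In the 810 sites of 20 to 24 reads it was 0.360 (0.333 to 0.387) of its flanks and in the 799 of 25 to 39 reads 0.295 (0.274 to 0.318). It was 0.461 (0.432 to 0.491) in the 471 of 40 to 79 reads and 1.37 (1.32 to 1.41) in the 378 of 80 or more, where the summed reads were above the flanks. WCE replicate 2 stood at 0.611, 0.727, 0.957 and 1.55 of its flanks and so was higher in each class than in the one before, while RNA Pol II was lower in the second class than in the first. The rule fixes the WCE values in part, because a bin with many WCE reads needs many H3K27me3 reads, and their part in the RNA Pol II values was not tested. Of the 3511 RNA Pol II reads in the strong class, 2286 lay in the 43 sites with an RNA Pol II bin (defined below). In the other 335 strong sites RNA Pol II was below the flanks, at 0.533 (0.503 to 0.565), though this split was made on RNA Pol II reads themselves. The value above the flanks thus does not describe most strong sites.

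**Figure D4:**
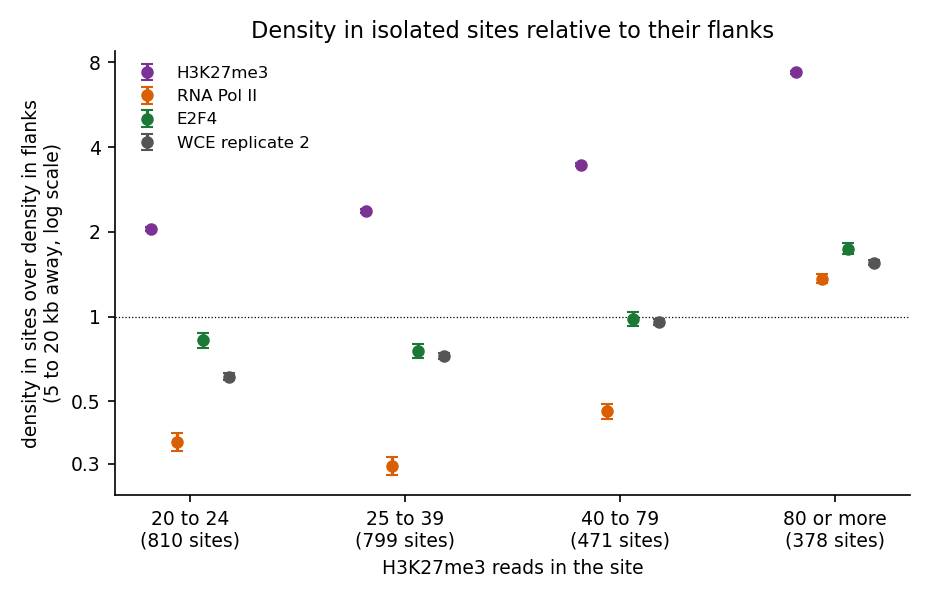
Points give read density in the sites over density in the flanks (log scale) for 4 classes of H3K27me3 reads per site, with exact 95% counting intervals as bars. RNA Pol II is 0.360, 0.295, 0.461 and 1.37 from the weakest class to the strongest, and E2F4 is lowest in the second class, at 0.757, and highest in the strongest, at 1.74; WCE replicate 2 runs from 0.611 to 1.55 and H3K27me3, which chose the sites, from 2.05 to 7.37.

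An RNA Pol II bin was a 500 bp bin with at least 10 RNA Pol II reads and a fold over WCE of at least 3, so its fold draws on WCE reads that also entered the choice of sites. Of the 2458 sites 52, 2.12% (1.58 to 2.77), held one, where 1.65% of all 2 kb bins did and 2.11% of the 2 kb bins in the flanks. Pooled over both lengths the share is thus near the background. It was 11.4% (8.36 to 15.02), 43 of 378, in the strong class and 0.247%, 0.125% and 1.27% in the weaker classes in order. Over the 2 kb sites it was 25 of 2017, 1.24% (0.804 to 1.82), below the 2.11% of 2 kb bins in the flanks. By WCE reads, RNA Pol II bins were in 18 of the 151 2 kb sites with 20 or more, 11.9%, and in 12.3% of all 138260 2 kb bins with as many. In sites with 10 to 19 WCE reads the share was 0.839% (5 of 596) against 0.402% of bins, and in sites with 5 to 9 it was 0.172% (2 of 1163) against 0.0370%. In the class of 20 or more, which has no upper limit, sites thus held an RNA Pol II bin about as often as all bins. In the classes of 10 to 19 and 5 to 9 sites held one more often, though on 5 and 2 sites only.

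The 52 sites held 11 to 350 RNA Pol II reads (median 39), 23 to 407 H3K27me3 reads (median 123) and 5 to 105 WCE reads (median 38.5). Together they held 2653 of the 5942 RNA Pol II reads, 44.6%. The other 2406 held 3289. The site with the highest lower limit, on chromosome 14 from 53880001 to 53882000, held 350 RNA Pol II, 134 H3K27me3, 33 E2F4, 0 WCE replicate 1 and 43 WCE replicate 2 reads, an RNA Pol II ratio of 30.5 (22.1 to 42.8). On chromosome 2, 110750001 to 110752000 held 54, 24, 10, 0 and 5 reads in that order, a ratio of 40.4 (16.3 to 129). The first lay near the median H3K27me3 reads of the 52 sites, and the second just past the limit of 20 reads.

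The next 3 by the same rule also held more RNA Pol II than E2F4 reads, which a ranking on the RNA Pol II ratio favours. On chromosome 3, 137560001 to 137562000 held 118 RNA Pol II, 73 H3K27me3, 9 E2F4, 0 and 19 WCE reads, a ratio of 23.2 (14.2 to 39.97). On chromosome 1, 142062001 to 142064000 held 51, 23, 8, 2 and 5 reads, a ratio of 27.3 (12.3 to 71.2). On chromosome 17, 8636001 to 8640000 held 138, 175, 10, 1 and 48 reads, a ratio of 10.5 (7.56 to 14.9).

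Within these 52 sites the densest 200 bp of RNA Pol II lay a median of 375 bp from the densest 200 bp of H3K27me3 (quartiles 150 and 700, longest 1900), and within 500 bp in 34 sites. Centred on the RNA Pol II summit, the H3K27me3 read level was about as high at the summit as beside it, and lower there relative to WCE. Its 200 bp windows touching the summit stood at 10.95 and 9.54 times the level 10 to 20 kb away, and those 300 bp off at 9.83 and 10.5. WCE replicate 2 stood at 3.18 and 2.83 at the summit and at 2.07 and 2.53 at 300 bp, so it was densest there. Scaled by autosomal totals, the ratio of H3K27me3 to WCE replicate 2 was 3.23 (2.89 to 3.62) in the windows touching the summit, 4.19 (3.70 to 4.75) in those 300 bp off and 4.002 (3.51 to 4.58) in those 500 bp off, a comparison added after the profile was seen. The RNA Pol II profile itself was centred on its own reads and is no result. Whether both marks lay on the same chromosome copies or in the same cells was not measured.

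**Figure D5:**
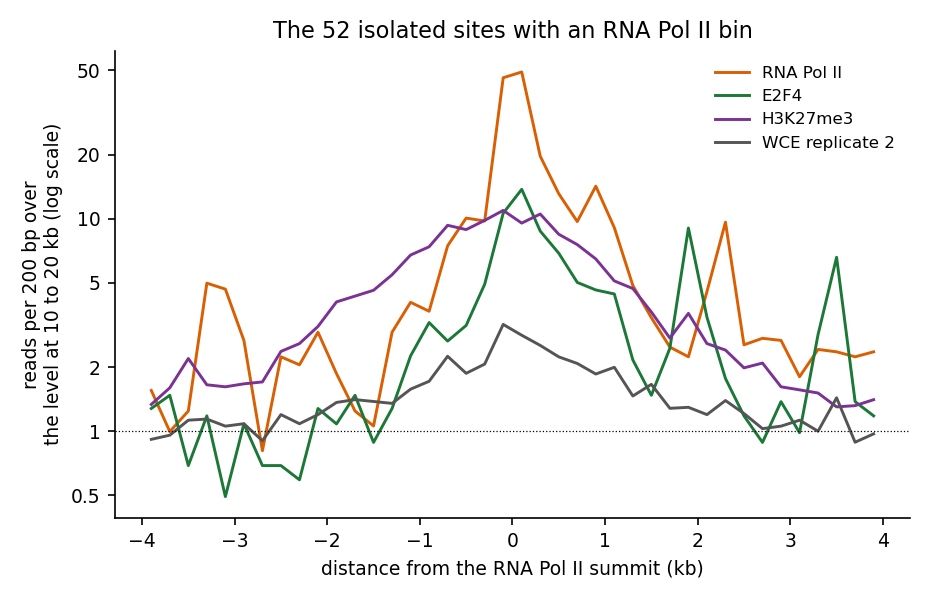
For the 52 isolated sites with an RNA Pol II bin, reads per 200 bp relative to the level 10 to 20 kb away (log scale) are plotted against distance in kb from the densest RNA Pol II stretch. H3K27me3 reads are near 10 across the summit, WCE replicate 2 reaches 3.18 there, and E2F4 peaks at 13.8 at the summit. That E2F4 value is a sum of 140 reads, and only 11 of the 52 sites held an E2F4 bin. E2F4 also reaches 9.05 in a window 1900 bp from the summit.

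Pooled over all sites E2F4 was at about the level of the surroundings, but the classes differed. A site held 0 to 61 E2F4 reads with a median of 2, and 558 sites held 0. Of the 2 kb sites 26.4% held 0, against 35.1% of all 2 kb bins. The 6052 reads gave a density of 5.29 per kb per 10000000 reads in the sites and 4.96 in the flanks, a ratio of 1.07 (1.04 to 1.10). The strong class stood at 1.74 (1.67 to 1.82) and the sites of under 40 reads at 0.785 (0.753 to 0.818), so the pooled value describes neither. WCE replicate 2 stood at 1.55 and 0.673 of its flanks in these 2 classes, and its part in the E2F4 values was not tested. The ratio to WCE was 1.06 (1.03 to 1.09). It could not be told from 1 with a fold limit of 2.5, with at least 30 H3K27me3 reads or with at least 10 WCE reads per 2 kb.

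E2F4 bins, defined like those of RNA Pol II, were in 16 sites, 0.651% (0.373 to 1.05), beside 0.741% of all 2 kb bins and 1.01% of those in the flanks. That share pools both lengths. In the 2 kb sites it was 7 of 2017, 0.347% (0.140 to 0.714), below both, and in the 4 kb sites 9 of 441, 2.04%. With 20 or more WCE reads, 3.31% of 2 kb sites (5 of 151) held one against 5.79% of 2 kb bins. With 10 to 19 it was 0.336% (2 of 596) against 0.0835%. Of the 16 sites, 12 were in the strong class, 12 of 378 or 3.17%. An RNA Pol II bin was also present in 11 of the 16, 68.8%, which is 21.2% of the 52 RNA Pol II sites and 0.448% of all sites, where 0.672% of all 2 kb bins held both. Of all 2 kb bins 8313 held an E2F4 bin, 18473 an RNA Pol II bin and 7540 both. Each thus came with the other more often among all bins than in the sites, which are few. In these 11 the densest 200 bp of both lay at most 450 bp apart (median 150). E2F4 and RNA Pol II therefore lay close together in the few isolated sites that held both.

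The E2F4 site with the highest lower limit, on chromosome 14 from 64906001 to 64910000, held 61 E2F4, 146 H3K27me3, 68 RNA Pol II, 0 WCE replicate 1 and 46 WCE replicate 2 reads, an E2F4 ratio of 7.83 (5.25 to 11.7). The next 4 had little RNA Pol II. On chromosome 1, 127738001 to 127740000 held 19, 41, 2, 0 and 10 reads in that order, a ratio of 11.2 (4.96 to 27.01). On chromosome 12, 81998001 to 82000000 held 13, 24, 1, 1 and 5 reads, a ratio of 12.8 (4.54 to 41.1). Neither had an E2F4 bin, because no single 500 bp bin reached the limits. On chromosome 2, 136404001 to 136406000 held 21, 45, 2, 0 and 15 reads, a ratio of 8.27 (4.06 to 17.2), and on chromosome 16, 67538001 to 67540000 held 25, 78, 3, 0 and 20 reads, a ratio of 7.38 (3.94 to 14.02). Both of these had an E2F4 bin and no RNA Pol II bin.

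The isolated sites were set beside 4686 regions of at most 4 kb that had another region within 20 kb and 1618 long regions, of 10 kb or more. RNA Pol II stood at 0.280 (0.273 to 0.287) of the flanks in short regions with a neighbour and at 0.266 (0.262 to 0.270) in the long ones, against 0.666 in the isolated sites. The isolated value was 2.38 times (2.29 to 2.46) that of the first and 2.5 times (2.43 to 2.58) that of the second, by large-sample intervals on the summed counts. Flanks are not alike, since RNA Pol II density there was 4.95 beside isolated sites, 7.01 beside short regions with a neighbour and 9.06 beside long regions. Per kb inside, RNA Pol II was at 3.29, 1.963 and 2.41. Among the isolated sites the value was 1.37 (1.32 to 1.41) of the flanks in the strong class and 0.322 (0.306 to 0.340) in the 1609 sites of under 40 reads, so most of the pooled difference was absent from the sites of under 40 reads. In the 1680 regions of 6 or 8 kb RNA Pol II stood at 0.431 (0.422 to 0.440) of the flanks, and the isolated value was 1.55 times (1.5 to 1.60) that.

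Pooled E2F4 differed in the same direction, at 1.07 of the flanks in isolated sites, 0.728 (0.712 to 0.744) in short regions with a neighbour and 0.780 (0.767 to 0.793) in long ones, the isolated value being 1.47 times (1.42 to 1.52) and 1.37 times (1.33 to 1.41) the others. By class it was 1.74 (1.67 to 1.82) in strong sites and 0.785 (0.753 to 0.818) in those of under 40 reads. WCE replicate 2 differed as well between the short sets, at 0.963 and 0.765 (0.759 to 0.772) of the flanks, while in the long ones it was 0.974 (0.967 to 0.980). Its part in these differences was not tested. RNA Pol II bins were in 42 short regions with a neighbour, 0.896% (0.647 to 1.21), and in 91 long regions, 5.62% (4.55 to 6.86), against 2.12% of isolated sites. Long regions offer more sequence in which a bin can lie. H3K27me3 density per kb, which chose all sets, was 22.004, 19.5 and 35.0.

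Isolated sites lay nearer to other H3K27me3 regions than other isolated sequence did. The next region was a median of 76 kb away (quartiles 36 and 204), where 2 kb bins more than 20 kb from any region had a median of 318 kb. Of the sites, 38.9% had it within 50 kb, against 9.74% of those bins, and 10.7% had it more than 500 kb away, against 37.6%. The next region of at least 10 kb was a median of 594 kb away, against 1654 kb. The strong sites stood farther from the next region of any length, with a median of 128 kb, than the sites of 20 to 24 reads, with 74 kb. To the next region of at least 10 kb the medians were alike, at 722 and 733 kb. Distances of neighbouring sites are shared, so these values are descriptions.

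The 5 most remote sites were of both kinds. On chromosome 2, 43606001 to 43610000, 5070 kb from the next region, held 44 H3K27me3, 1 RNA Pol II, 4 E2F4, 0 and 13 WCE reads. On chromosome 5, 85490001 to 85494000, at 4386 kb, held 103, 3, 3, 1 and 27 reads in that order. On chromosome 1, 30720001 to 30722000, at 3678 kb, held 20, 2, 0, 0 and 7 reads. The last of these lay exactly at the limit of 20 reads. On chromosome 5, 17870001 to 17874000, at 3466 kb, held 139, 23, 17, 0 and 43 reads and had an RNA Pol II bin. On chromosome 10, 36196001 to 36198000, at 3418 kb, held 71, 2, 8, 0 and 27 reads.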

How the data were processed

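The deposited files hold, per the file headers, positions of reads that the authors aligned to mouse build mm8 with bowtie (-e 70, -k 2, -m 2, -n 2, with -l 36 for H3K27me3 and WCE replicate 2 and -l 26 for the others). No bowtie version is named in these sources. Per the labels, chromatin was sheared to 500 bp on average and amplified for 18 cycles, and gel slices of 150 to 350 bp were taken. Each deposited list has a first section (BWT1), which was used, and a second of reads listed at 2 places. The sign of a position is its strand, and minus-strand positions were read as leftmost bases. Each position and strand was counted once, after a shift of the 5′ end by 60 bp downstream. Libraries were scaled by autosomal totals and WCE libraries summed. Ratios have exact conditional binomial (Clopper-Pearson) intervals, computed with Python 3.11.15, numpy 2.4.6 and scipy 1.17.1. Flanks left out all regions and 5 kb around them. The rule and intervals were tested on simulated data. The simulated bins were raised 8-fold or more, a fold that only 40 of the 2458 sites reached. How the rule works near a fold of 3 was therefore not tested. Named sites are the 5 with the highest lower limit of each antibody's ratio to WCE, the 5 most remote and the 3 on each side of the fold limit. Members and sets were chosen with earlier results of these data known. Classes of H3K27me3 and WCE reads, the edge strips and the ratio at RNA Pol II summits were chosen after the values were seen. Only chromosomes 1 to 19 were used.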

Additional observations from a re-analysis of the deposited data

Results flagged for a closer look

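Reads listed at 2 places were used in no comparison, and they too were denser in the isolated sites for H3K27me3. The sites held 2414 such H3K27me3 reads and 1218 of WCE replicate 2, a ratio of 2.34 (2.19 to 2.51) scaled by the autosomal totals of these reads. Against both WCE libraries it was 2.49 (2.33 to 2.65). H3K27me3 stood at 1.43 (1.37 to 1.49) of its flanks, WCE replicate 2 at 0.794 (0.749 to 0.841), RNA Pol II at 0.773 (0.713 to 0.837) and E2F4 at 0.908 (0.829 to 0.992). The reads lay in 640 sites, 26.04%, and a single site held 293. Without the 10 sites that held most of them the ratio was 1.93 (1.79 to 2.10). Each of these reads was counted once for every place listed, and its origin is not resolved.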

How the results depend on the processing

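Alternatives numbered 20 for each of 7 values. The 3 that keep sites with at least 80 reads, keep sites with under 40 reads or count a gap of exactly 20 kb as outside were chosen after seeing the data. The count of sites stayed within 1.5 times under 15 of them. It was 1501 with isolation by 50 kb, 1063 with at least 10 WCE reads per 2 kb, 378 with at least 80 H3K27me3 reads and 1609 with under 40. Leaving out one WCE library gave 1379 to 2420 sites, the lower without WCE replicate 2, which holds nearly all WCE reads. Values without WCE replicate 2 are of another set, since no bin of under 40 H3K27me3 reads can pass there. Ratios to WCE in that setting are also tied to the choice of sites with few WCE replicate 1 reads.

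The RNA Pol II ratio to WCE, 0.657, turned to 1.55 with scaling on background bins, and to 30.3 without WCE replicate 2 (0.672 without WCE replicate 1). It was 0.706 with at least 30 reads, 0.678 with at least 15, 0.623 with isolation by 10 kb, 0.605 with bins started 1000 bp later, 0.636 with 5′ ends moved by 0 or by 100 bp, 0.592 with repeats kept, 0.625 in 2 kb sites, 0.758 with at least 10 WCE reads per 2 kb, 0.984 with at least 80 H3K27me3 reads and 0.420 with under 40.

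The E2F4 ratio to WCE, 1.06, turned to 0.998 with a fold of 2.5, 0.996 with at least 30 reads and 0.983 with at least 10 WCE reads per 2 kb. It was 1.11 with a fold of 4, 1.13 with at least 15 reads, 1.02 with bins started later, 1.26 with background scaling and 1.11 with under 40 H3K27me3 reads. Without one WCE library it was 1.06 to 28.6.

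The share with an RNA Pol II bin, 2.12%, was 3.8% with at least 30 reads, 1.26% with RNA Pol II bins of at least 20 reads, 1.24% in 2 kb sites, 4.70% with at least 10 WCE reads per 2 kb, 11.4% with at least 80 H3K27me3 reads and 0.186% with under 40. The share with an E2F4 bin, 0.651%, was 1.32%, 0.163%, 0.347%, 1.41%, 3.17% and 0.0622% under the same settings in that order, 0.329% with bins started later and 1.17% with repeats kept. Without one WCE library they were 2.31% to 7.32% and 0.744% to 2.97%.

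RNA Pol II against the flanks, 0.666, turned to 1.37 in sites with at least 80 H3K27me3 reads and to 2.37 without WCE replicate 2 (0.700 without WCE replicate 1). It was 0.764 with a fold of 4, 0.892 with at least 30 reads, 0.623 with at least 15, 0.713 and 0.593 with isolation by 50 and 10 kb, 0.596 with bins started later, 0.633 with 5′ ends moved by 100 bp, 0.559 with repeats kept, 0.628 with background scaling, 0.560 in 2 kb sites, 0.887 with at least 10 WCE reads per 2 kb and 0.322 with under 40 H3K27me3 reads. E2F4 against the flanks, 1.07, turned to 0.940 in 2 kb sites and 0.785 with under 40 H3K27me3 reads. With repeats kept E2F4 was at 0.990 (0.967 to 1.01) of the flanks, which cannot be told from 1. It was 1.21 and 1.03 with folds of 4 and 2.5, 1.25 and 1.01 with at least 30 and 15 reads, 1.17 and 1.02 with isolation by 50 and 10 kb, 1.02 with bins started later, 1.27 with at least 10 WCE reads per 2 kb, 1.74 with at least 80 H3K27me3 reads and 1.10 to 2.41 without one WCE library. The cause of these shifts was not tested.

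No paired analysis was possible because each antibody has 1 library and only WCE has replicate numbers. Most sites hold few RNA Pol II and E2F4 reads, so single weak sites cannot be told from their surroundings at this depth.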

Other observations

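Isolated sites were spread over all 19 autosomes more evenly than long regions. Their number per mapped Mb ran from 0.869 on chromosome 14 to 1.34 on chromosomes 8 and 19, whereas regions of at least 10 kb ran from 0.265 per Mb on chromosome 16 to 1.30 on chromosome 11. Isolated sites made up 17.1% of the regions on chromosome 9 and 33.1% on chromosomes 3 and 16. WCE replicate 2 density on the autosomes ran from 0.825 of the mean on chromosome 3 to 1.29 on chromosome 11, and its part in these numbers was not tested.

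Each chromosome was also split, from the first to the last mapped base of mm8, into 10 equal stretches. Stretch 1 held 8.22% of the sites and 9.62% of the mapped 2 kb bins. Stretch 9 held 12.6% of the sites and 10.3% of the bins, and stretch 10 held 13.1% and 10.1%.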
